A study of Homo sapiens with 12 samples.

Results

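The cluster of miR-191 and miR-425 is a pair of neighbouring microRNA (miRNA) hairpins, and each hairpin has a guide arm and a star arm on the array used here. The 4 names hsa-miR-191, hsa-miR-191*, hsa-miR-425 and hsa-miR-425* were chosen by name alone, out of 851 human miRNA names measured. Of these 4, the 3 names hsa-miR-191*, hsa-miR-425 and hsa-miR-425* were above the lowest value of their column on at least 1 array, and hsa-miR-191 was on none. Levels were measured in Saos-2 and in Sa/CD99 cells. Saos-2 is an established human osteosarcoma cell line, and Sa/CD99 cells are Saos-2 cells stably transfected with CD99, a cell surface glycoprotein. Both were sampled at day 0 and after 7 and 14 days in medium that promotes osteoblastic differentiation, which gave 6 groups of 2 arrays. The 2 Sa/CD99 arrays of each day came from 2 transfected clones, wt22 and wt36, obtained by calcium phosphate transfection and selection in neomycin. Each clone is a single derived line, the comparison line is the parental one, and a line carrying an empty vector was not analysed here. Nothing in the labels says that the 2 Saos-2 arrays of a day came from separate cultures, so a p-value measures the spread between these arrays, which may be partly technical.

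A miRNA is cut out of a hairpin precursor as a short duplex, and usually one strand of the duplex, the guide, is loaded into an Argonaute protein and directs silencing of messenger RNAs. The other strand, written with an asterisk in the naming used on this array, is usually degraded and is therefore the scarcer product. Bases 2 to 8 of the mature strand, the seed, pair with the target, so the arms of one hairpin have different targets. miR-191 and miR-425 are made from one primary transcript that overlaps the gene DALRD3. miR-191 is abundant in many tissues and has been used as a reference for PCR assays of other miRNAs.

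In RefSeq (GRCh38.p14) both hairpins lie on the minus strand of chromosome 3 within the bounds of DALRD3, chr3:49015488-49021505. MIR425 is at chr3:49020148-49020234 and MIR191 at chr3:49020618-49020709, with 383 bases between them. The exons of DALRD3 were not used here. RefSeq sequences were matched for 3 of the 4 arms and are printed 5′ to 3′ with the seed in capitals, because the arms are read by separate probes and carry separate seeds. In the present naming miR-191 is the 5p arm, and miR-191* and miR-425* are the 3p arms.
hsa-miR-191-5p, chr3:49020672-49020694: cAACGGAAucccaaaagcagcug
hsa-miR-191-3p, chr3:49020631-49020652: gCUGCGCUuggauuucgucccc
hsa-miR-425-3p, chr3:49020159-49020180: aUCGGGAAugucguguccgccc
Each of these 3 seeds belonged to 1 mature miRNA name in the RefSeq table, so no printed arm shared its seed with another listed miRNA. G and C made up 52.2% of the bases of miR-191-5p and 63.6% of those of both 3p arms.

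Levels were read in a table of log2 values, normalized between arrays by the authors, in which an undetected miRNA stands at the lowest value of its column, between -3.32 and -3.00. Between 133 and 229 of the names were above that value in a column, 100 were above it in all 12 columns, and the median of every column was the lowest value itself. The scanner outputs of the same 12 arrays gave each miRNA a total gene signal, a linear, unnormalized intensity. The labels of these 2 records disagreed. Each column of the table had the same detected miRNAs as 1 scanner array for 847 of 847 shared names, but for 0 of 12 columns was it the array filed under the same sample. Which record carries the right labels is not known, so each result rests on the table under its own labels, and scanner values are given for the matched arrays. Under the samples they were filed with, slide 1 held the 6 scanner arrays of Sa/CD99 cells and slide 2 those of Saos-2 cells, so slide and cell type are not separable in any comparison of the arrays as filed. Under the labels of the table, both cell types of day 0 and Saos-2 of day 7 were on slide 1, and the other 3 groups were on slide 2. The cell types therefore shared a slide at days 0 and 14, while at day 7 each lay on a slide of its own, so the effects of slide and of cell type cannot be told apart there. The summed signal of the human miRNAs ranged from 8177 to 25558 per array. Of 5 mesenchymal miRNA markers, miR-199a-3p, miR-199a-5p, miR-214 and miR-145 were above the lowest value in 12 of 12 columns and miR-143 in none. None of the 4 haematopoietic and 5 epithelial markers, nor the liver marker miR-122 and the neuronal miR-124, was above it on any array, and of 4 muscle markers miR-133b alone was, on 3 arrays.

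miR-191, the guide arm of its hairpin, was not detected on any of the 12 arrays, whereas its star arm was detected on all 12. None of the 192 spots of the 4 miR-191 probes was well above background. On each array the median spot of miR-191 had a signal of 28 to 32, beside a local background of 26.5 to 32.3 and a median of 29.5 to 34 for the negative control spots. The background-subtracted sum of the 4 probes was below 0 on every array, from -1.80 to -0.95. These probes therefore gave no level for miR-191 in either cell type on any day, only a bound set by the background, and no difference between groups was computed for it.

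miR-191*, which has the same number of probes and spots, had 122 of 192 spots well above background. The corresponding counts were 167 of 192 for miR-425 and 84 of 192 for miR-425*. The median spot signal of miR-191* ran from 34.5 to 44.8 over the arrays, beside a local background of 27 to 32.8. Of 143 pairs of an arm and its star arm on the array, 9 had the star above the lowest value on at least 1 array and the other arm on none. The miR-191 pair was 1 of these 9, and it was the 1 pair whose star was above the lowest value on all 12 arrays. Signals of different probes depend on how well each probe hybridizes, so the contrast between the arms describes these probes and is not a ratio of the arms.

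**Figure D1:**
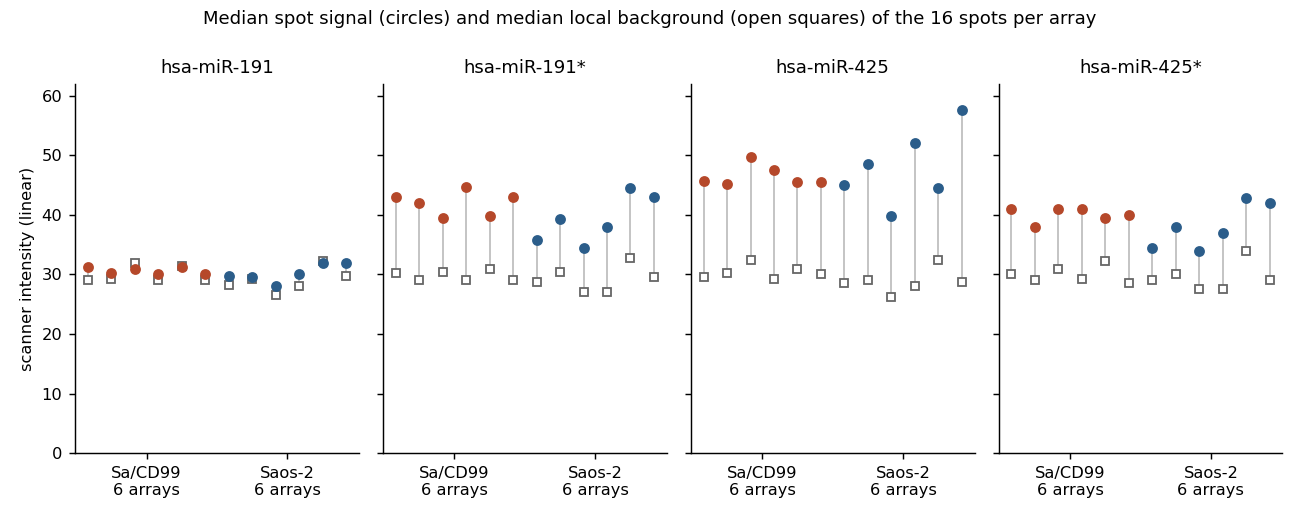
Median signal (filled circles, Sa/CD99 in red and Saos-2 in blue) and median local background (open squares) of the 16 spots of each arm on each of the 12 matched arrays, as linear scanner intensity, with the 6 arrays of each cell type in the order of days 0, 7 and 14. The circles of miR-191 lie between 28 and 32, at the squares, and those of miR-191* lie between 34.5 and 44.8, above the squares on every array.

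miR-191*, the star arm of the miR-191 hairpin, was above the lowest value in every group and lay higher in Sa/CD99 than in Saos-2 cells at days 0 and 7 on both arrays. In Sa/CD99 cells its level on the log2 scale of the table was 4.43 and 4.52 at day 0, 2.91 and 3.55 at day 7, and 1.09 and 1.49 at day 14, each time for clone wt22 and then clone wt36. In Saos-2 cells it was 3.74 and 3.83 at day 0, 2.73 and 0.12 at day 7, and 3.11 and 1.02 at day 14. The Sa/CD99 values fell from day to day without overlap, while the Saos-2 replicates of days 7 and 14 lay over 2 log2 units apart and overlapped each other. The group means ran in the order Sa/CD99 day 0, Saos-2 day 0, Sa/CD99 day 7, Saos-2 day 14, Saos-2 day 7 and Sa/CD99 day 14. The last 3 of these did not differ beyond their spread, with 2.07 ± 1.47, 1.42 ± 1.85 and 1.29 ± 0.29 (SD, n = 2 each). Between 21.5% and 43.7% of the detected miRNAs of an array had a lower value, a position that serves to compare arrays and not miRNAs, since each probe has its own response.

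miR-425, the guide arm of its hairpin, was above the lowest value on all 12 arrays, and its level was highest at day 0 in both cell types. Its level was 4.89 and 4.85 at day 0, 3.90 and 3.62 at day 7, and 2.79 and 3.14 at day 14 in the Sa/CD99 clones wt22 and wt36. In Saos-2 cells it was 4.94 and 4.70, then 3.90 and 3.24, then 3.24 and 3.86. It was the steadiest of the 3 detected arms, with an SD within groups of 0.03 to 0.47 (n = 2), and the cell types overlapped at days 0 and 7. The day 0 means of Sa/CD99 and Saos-2 cells were 4.87 ± 0.03 and 4.82 ± 0.17 (SD, n = 2) and did not differ beyond their spread. Between 37.9% and 56.5% of the detected miRNAs of an array had a lower value than miR-425.

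miR-425*, the star arm of that hairpin, was above the lowest value on 11 of 12 arrays. Its level in the Sa/CD99 clones wt22 and wt36 was 4.20 and 4.15 at day 0, 2.79 and 3.20 at day 7, and -0.68 and 1.09 at day 14. In Saos-2 cells it was -3.03 and 3.62 at day 0, 1.05 and -0.21 at day 7, and 2.64 and 0.96 at day 14. The value of -3.03, replicate 1 of Saos-2 at day 0, is the lowest value of its column and stands for an undetected miRNA rather than a measured level. As a result the SD of the Saos-2 group of day 0 was 4.70, against 0.03 in the Sa/CD99 group of that day. In the table the clones of Sa/CD99 were close at day 0, where wt36 minus wt22 was -0.04 for miR-425*, -0.05 for miR-425 and 0.09 for miR-191*. They were furthest apart there for miR-425* at day 14, by 1.76, and the clones were not compared by a test. This order did not hold on the matched arrays normalized from the spot signals. There miR-425* was 3.90 in wt22 and 2.71 in wt36 at day 0, and 1.72 and 1.97 at day 14.

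**Figure D2:**
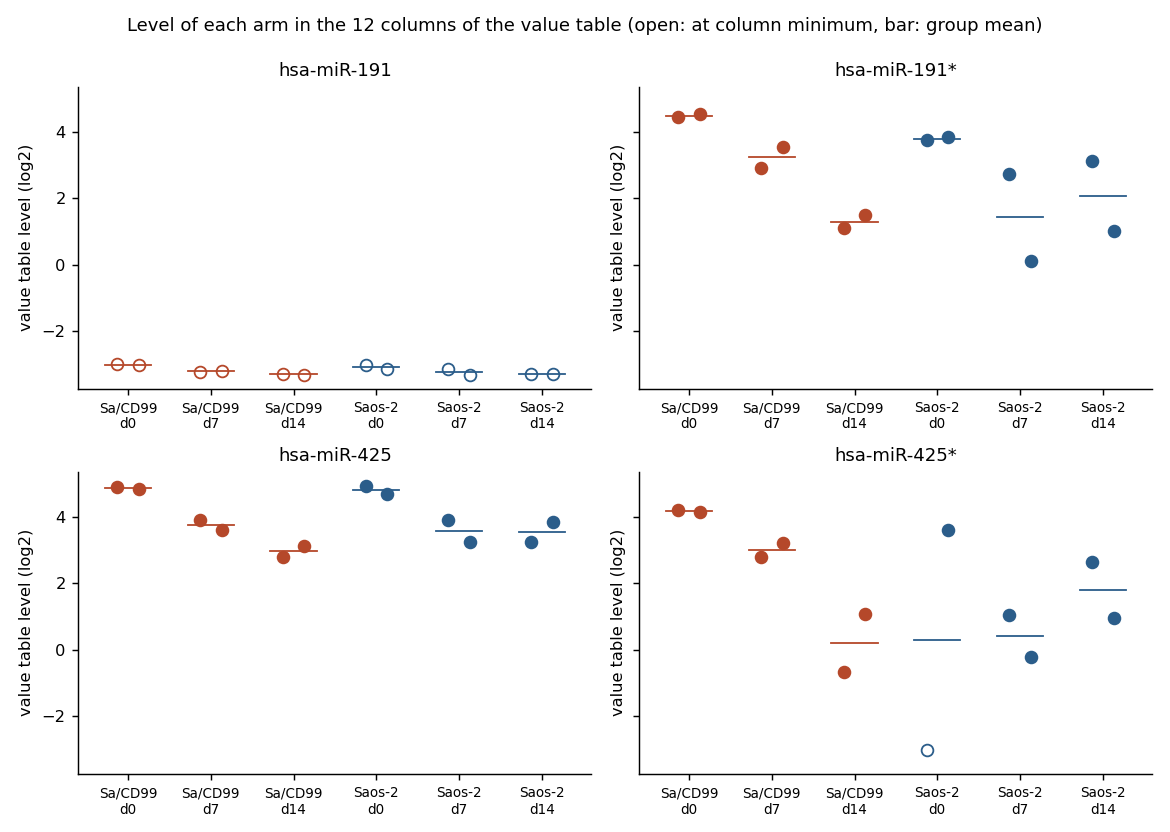
Level of each arm in the 12 columns of the normalized table (vertical axis, log2) by cell type and day, with each array as a point, the group mean as a bar, and open points at the lowest value of the column. miR-191 is open on 12 of 12 arrays, and the single open point of miR-425* is the -3.03 of replicate 1 of Saos-2 at day 0.

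The scanner record gave the probes behind each value of the star arms. The total gene signal adds up only those probes of a miRNA that the scanner software counted as detected. For miR-425 both probes were counted on all 12 arrays. For miR-425* none of its 2 probes was counted in replicate 1 of Saos-2 at day 0, where the total gene signal was the floor of 0.1, although the sum of both probes was 4.34. On that array 15 of its 16 spots were significantly positive but 0 were well above background. A single probe was also left out for clone wt22 at day 14 and for replicate 1 of Saos-2 at day 7, where the sum of both was 6.31 and 4.84 and the total gene signal 3.95 and 2.94. For miR-191* 1 of 4 probes was left out in replicate 1 of Saos-2 at days 0 and 7, where the sums were 6.77 and 6.05 and the total gene signals 5.41 and 4.95. The 2 arrays of Saos-2 replicate 1 at days 0 and 7 thus carried 4 of these 5 incomplete sums.

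On the matched arrays the total gene signal of miR-191* was 10.98 and 10.76 in Sa/CD99 and 5.41 and 10.3 in Saos-2 cells at day 0. At day 7 it was 8.81 and 14.1 in Sa/CD99 and 4.95 and 7.83 in Saos-2 cells, and at day 14 it was 7.73 and 11.4 against 12.2 and 11.3. Sa/CD99 signals were above those of Saos-2 at days 0 and 7, also with the sum of all probes, and 1 of the 2 lay below them at day 14. The nearest signals were no further apart than about their scanner error. They were 10.76 ± 1.03 and 10.3 ± 0.98 at day 0, and 8.81 ± 1.01 and 7.83 ± 0.90 at day 7 (total gene error). For how many of all miRNAs these unnormalized signals did not overlap between the cell types was not computed. Total gene signals of miR-425 were 14.6 and 14.6 at day 0, 19.3 and 15.04 at day 7, and 13.7 and 18.8 at day 14 in Sa/CD99 cells. In Saos-2 cells they were 15.7 and 18.1, then 11.9 and 20.2, then 12.8 and 29.3, so Sa/CD99 was below Saos-2 at day 0 and the cell types overlapped at days 7 and 14. For miR-425* they were 8.68 and 7.80, then 8.46 and 10.8, then 3.95 and 9.47 in Sa/CD99 cells. In Saos-2 cells they were 0.1 and 8.12, then 2.94 and 7.15, then 8.65 and 9.76. In Sa/CD99 cells, where the table values of all 3 detected arms were lower at day 14 than at day 0, the mean signal of miR-425 was 14.6 ± 0.0 at day 0 and 16.2 ± 3.6 at day 14 (SD, n = 2).

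**Figure D3:**
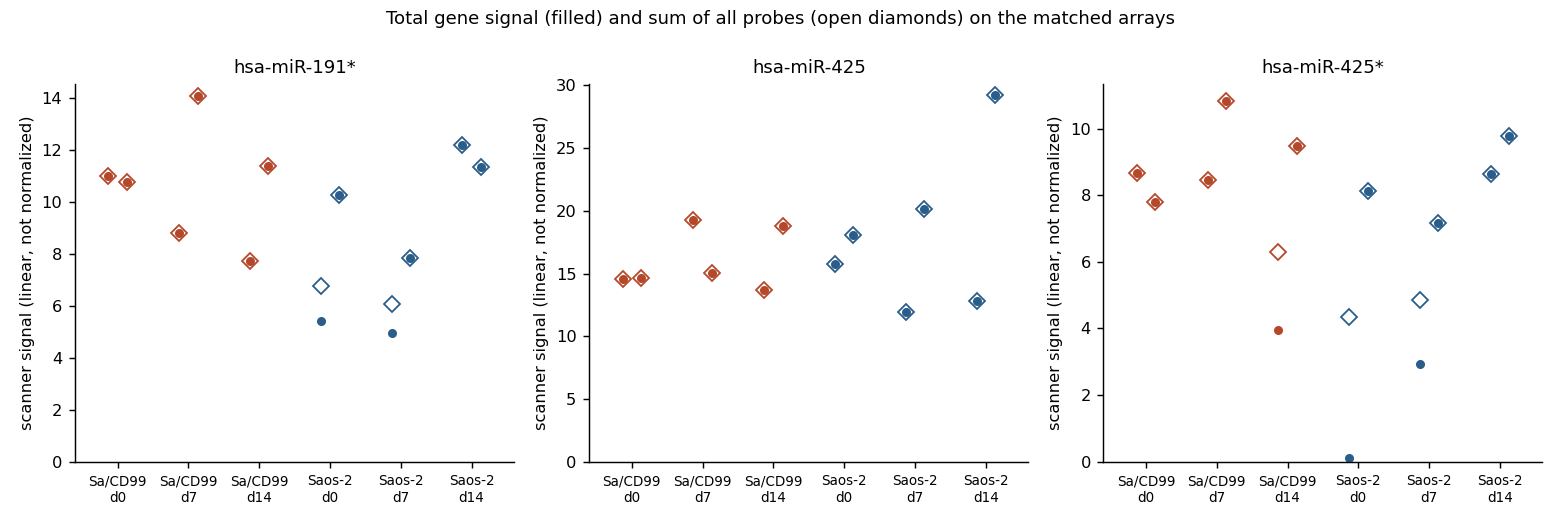
Total gene signal (filled points) and background-subtracted sum of all probes (open diamonds) of the 3 detected arms on the 12 matched arrays, as linear unnormalized scanner signal against cell type and day. The points separate from the diamonds where probes were not counted as detected, most for miR-425* in replicate 1 of Saos-2 at day 0, at 0.1 and 4.34.

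The first comparison asked whether expression of CD99 went with a different level of these arms at each day. No detected arm met the rule of an unadjusted p of at most 0.01 and a change of at least 1.4-fold in limma on the table, at any day. Of the 219 tested miRNAs, 2.74% met it at day 0, 3.2% at day 7 and 9.13% at day 14. At day 0 miR-191* was 0.69 ± 0.90 higher on the log2 scale in Sa/CD99 cells (SE, adjusted p = 0.9996 in limma). At day 7 it was 1.81 ± 0.90 higher (SE, adjusted p = 0.656), and at day 14 its difference was -0.78 ± 0.90 (SE, adjusted p = 0.674). For miR-425 the differences were near 0 at days 0 and 7, at 0.05 ± 0.37 and 0.19 ± 0.37, and -0.59 ± 0.37 at day 14 (SE, adjusted p = 0.9996, 0.996 and 0.382). For miR-425* they were 3.88, 2.57 and -1.60, each ± 1.83 (SE, adjusted p = 0.9996, 0.708 and 0.670). The day 0 difference of miR-425* rested on the undetected array and was 0.56 ± 0.94 with that value set to missing.

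The arrays of the 2 cell types did not overlap for 2 of the 3 tested arms at day 0 and again at day 7, where both Sa/CD99 arrays were above both Saos-2 arrays for miR-191* and miR-425*. The share of all tested miRNAs with such arrays was 11.9% at day 0, and for day 7 it was 13.2%. At day 14 both Sa/CD99 arrays were below both Saos-2 arrays for miR-425 alone, as for 27.4% of all tested miRNAs. The 100 miRNAs above the lowest value on all arrays had a median difference of -0.49 between the cell types at day 14, so relative to them miR-425 was -0.10. Over all days the differences were 0.57 ± 0.52 for miR-191*, -0.12 ± 0.22 for miR-425 and 1.62 ± 1.06 for miR-425* (SE, adjusted p = 0.601, 0.820 and 0.495 in limma). None was called at an adjusted p of 0.05, as 2.74% of all tested miRNAs were. The value of miR-425* over all days holds the undetected array. With single arrays left out in turn, these differences ran from 0.14 to 1.01 for miR-191*, -0.23 to -0.0068 for miR-425 and 0.51 to 2.73 for miR-425*. The interaction of cell type and day was not called for any of the 3 arms at an adjusted p of 0.05, with adjusted p = 0.749 for miR-191*, 0.879 for miR-425 and 0.678 for miR-425* in limma. It was called for 1.83% of all tested miRNAs.

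The size of the difference at day 0, where the cell types shared a slide, depended on the record that was read. On the matched arrays, normalized from the spot signals, miR-191* was 1.47 ± 0.40 higher in Sa/CD99 cells (SE, unadjusted p = 0.00372 and adjusted p = 0.0940 in limma). It met the rule there, as did 5.02% of all tested miRNAs. In the table it also met the rule when the 4 arrays of day 0 were fitted alone, at the same 0.69 with an SE of 0.09 (unadjusted p = 0.00502 and adjusted p = 0.157 in limma), as did 4.11% of all. Its adjusted p ranged from 0.0940 to 1 over 14 settings. On the matched arrays miR-425* was 1.12 ± 0.44 higher at day 0 and did not meet the rule, and miR-425 was 0.22 ± 0.35 higher. In the fits of the table and of the matched arrays, the estimates of all 3 arms were above 0 at days 0 and 7 and below 0 at day 14. Several were within their SE of 0. In both fits these were miR-425 at days 0 and 7. On the table miR-191* at days 0 and 14 and miR-425* at day 14 were too, and on the matched arrays all 3 arms at day 14. The total gene signals of miR-425 were lower in Sa/CD99 cells at day 0. With the scanner arrays under the samples they were filed with, where cell type and slide coincide, the sign was turned for miR-191* and miR-425* at day 7 and for all 3 arms at day 14. With rma background correction of the matched arrays and no normalization between them it was turned for miR-191* and miR-425 at day 7 and again for all 3 arms at day 14, whereas the mean total gene signals of all 3 arms were lower in Sa/CD99 cells at day 14. Relative to the always detected miRNAs, whose median at day 14 was -0.40 on the matched arrays, the 3 arms were at 0.07, 0.13 and 0.09 there for miR-191*, miR-425 and miR-425*, above 0.

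The call depended on single arrays in other places. Without replicate 2 of Saos-2 at day 0 the only array left in its group was the undetected one, and miR-425* was then called at 7.21 (adjusted p = 0.00679 in limma), as 4.57% of all tested miRNAs were. It was also called over all days in that fit, as 3.2% of all were. Without replicate 1 of Saos-2 at day 7, miR-191* was called at day 7 with a difference of 3.11 (unadjusted p = 0.00663 in limma), in a fit that called 11.4% of all tested miRNAs. Without replicate 2 of Saos-2 at day 7 that difference of miR-191* was 0.50 instead. The lone array left is assumed in such a fit to vary like the other groups.

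**Figure D4:**
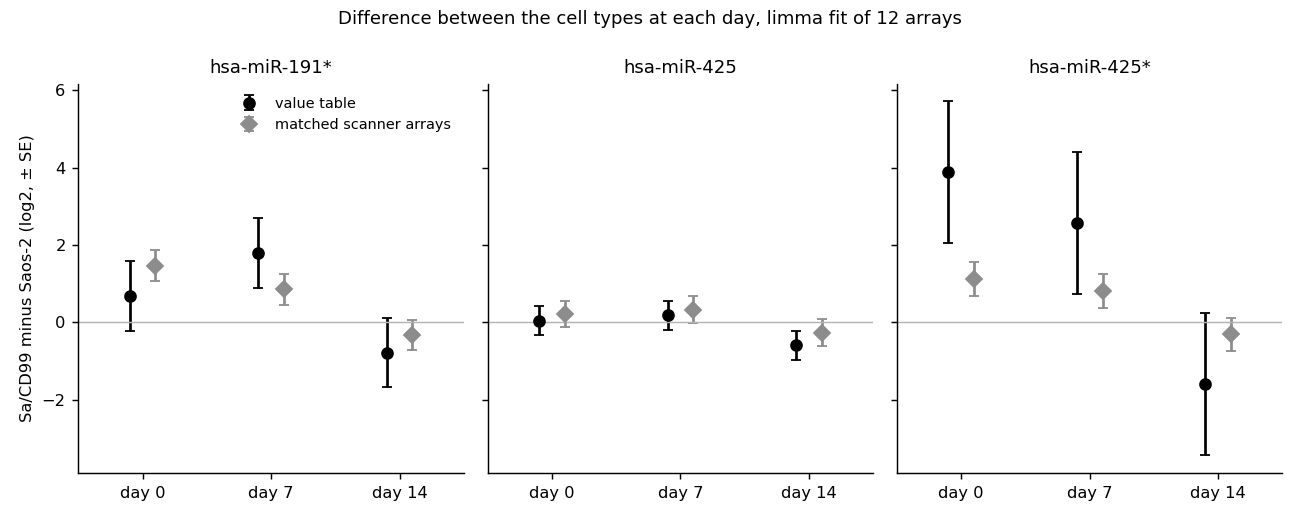
Sa/CD99 minus Saos-2 at each day for the 3 detected arms (vertical axis, log2, points with bars of 1 SE from the limma fit of 12 arrays), on the normalized table (black circles) and the matched scanner arrays (grey diamonds). Points lie above 0 at days 0 and 7 and below 0 at day 14 for each arm, and the difference of miR-191* at day 0 is 0.69 on the table and 1.47 on the scanner arrays.

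The second comparison followed each cell type over the days of differentiation. On the table, miR-425 fell from day 0 in both cell types and miR-191* in Sa/CD99 cells. In the test over the 3 days at an adjusted p of 0.05, 2 of the 3 arms were called in Sa/CD99 cells, where 67.6% of all tested miRNAs were called, and 1 of 3 in Saos-2 cells, where 44.7% were. The 2 arms of Sa/CD99 cells were miR-425 (adjusted p = 0.00850 in limma) and miR-191* (adjusted p = 0.0370 in limma), and the arm of Saos-2 cells was miR-425 (adjusted p = 0.0377 in limma). In Sa/CD99 cells from day 0 to day 14, miR-425 fell by 1.91 ± 0.37 and miR-191* fell by 3.19 ± 0.90, on the log2 scale (SE, adjusted p = 0.00274 and 0.0129 in limma). Over the same days 37.4% of all tested miRNAs were called lower. The day 0 arrays of Sa/CD99 cells lay on slide 1 and all later ones on slide 2, so the effects of slide and of day cannot be told apart in these calls or in the test over 3 days. miR-425* had a difference of -3.97 ± 1.83 that was not called (SE, adjusted p = 0.0802 in limma). With the undetected Saos-2 value set to missing its SE was 0.77 and it was called (adjusted p = 0.00306 in limma, with a range over 12 settings of 0.00306 to 0.919), as were 47% of all tested miRNAs.

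Some of these calls ended when single arrays were left out, which was done for each of the 12 in turn. In the test over days in Sa/CD99 cells, miR-425 was called in 12 of 12 such fits (adjusted p up to 0.0482 in limma). miR-191* was called in 4 of 12 there, those without an array of Saos-2 at day 7 or 14, and its adjusted p in limma reached 0.153 without clone wt22 of day 14. In the test over days in Saos-2 cells, miR-425 was called in 3 of 12 fits, those without either array of day 7 or without replicate 2 of day 14. In the other 9 its adjusted p in limma ran up to 0.183, the value without replicate 1 of Saos-2 at day 0. The change of miR-191* from day 0 to 14 in Sa/CD99 cells was called in 10 of 12 fits, and not without clone wt36 of day 0 or clone wt22 of day 14 (adjusted p = 0.0506 and 0.0657 in limma).

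In Sa/CD99 cells all 3 arms were lower at each later day than at the one before, with no overlap of arrays. From day 0 to 7 this held for 60.7% of all tested miRNAs, from day 7 to 14 for 44.3%, and from day 0 to 14 for 52.5%. Within slide 2 the differences from day 7 to day 14 in Sa/CD99 cells were -1.94 for miR-191*, -0.80 for miR-425 and -2.79 for miR-425*, and none was called (adjusted p = 0.153, 0.153 and 0.289 in limma), where 19.6% of all tested miRNAs were. In Saos-2 cells miR-425 fell by 1.25 ± 0.37 from day 0 to day 7, both on slide 1, and its difference from day 0 to day 14 was -1.27 ± 0.37 (SE, adjusted p = 0.0317 and 0.0224 in limma). In these comparisons 36.5% and 55.7% of all tested miRNAs were called. With single arrays left out, these calls of miR-425 stood in 7 and 9 of 12 fits, with an adjusted p in limma of 0.127 without replicate 1 of day 0 at the first and 0.107 without replicate 1 of day 14 at the second. The Saos-2 arrays of days 0 and 14 lay on different slides, so slide and day are not separable in the second. miR-191* had differences of -2.37 ± 0.90 and -1.72 ± 0.90 over the same days in Saos-2 cells, which were not called (SE, adjusted p = 0.0722 and 0.136 in limma). With single arrays left out these differences of miR-191* ran from -3.67 to -1.06 and from -2.76 to -0.68. Both arms were below day 0 without overlap at days 7 and 14, as were 48.9% and 47.9% of all tested miRNAs. miR-425* in Saos-2 cells had 0.13 at day 7 and 1.51 at day 14 relative to day 0, and both turned below 0, to -3.20 and -1.81, with the undetected array set to missing.

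These falls were measured on a scale on which most of the 100 miRNAs above the lowest value on all arrays fell. Among all 219 tested miRNAs the calls from day 0 to day 14 went both ways. Of those called, 81 of 163 were higher in Sa/CD99 cells and 63 of 122 in Saos-2 cells. The median change of the 100 miRNAs above the lowest value on all arrays was -1.57 from day 0 to day 14 in Sa/CD99 cells and -1.15 in Saos-2 cells. From day 0 to day 7 in Saos-2 cells it was -0.97. Relative to these medians miR-425 changed by -0.34, -0.12 and -0.28, so most of its fall was shared by the always detected miRNAs. Relative to the same median miR-191* was -1.62 and miR-425* was -2.40 in Sa/CD99 cells from day 0 to day 14, and miR-191* was -0.57 in Saos-2 cells and -1.39 there from day 0 to day 7. In another fit each column was centred on its own median of the 100, and no arm was called over days in either cell type. Their median change was still -0.45 from day 0 to day 14 in Sa/CD99 cells in that fit, since the median of the changes is not the change of the medians. The changes from day 0 to day 14 in Sa/CD99 cells were then -0.79 for miR-425 and -2.06 for miR-191* (adjusted p = 0.0716 and 0.0888 in limma, with ranges over 13 settings of 0.000454 to 0.937 and 0.000221 to 0.937). No arm was called over days either with total gene signals scaled to the 75th percentile, without normalization between arrays, or with the scanner arrays as filed. As filed, limma called 0 of 213 tested miRNAs over days in either cell type, with 7 at an unadjusted p under 0.05 in Sa/CD99 and 0 in Saos-2 cells. With rma background correction of the spots and no normalization between arrays, all 3 arms turned higher at day 14 than at day 0 in Sa/CD99 cells, by 0.94, 1.15 and 1.21 for miR-191*, miR-425 and miR-425*. The mean total gene signals, also not normalized, went from 10.9 to 9.55 for miR-191* and from 8.24 to 6.71 for miR-425* over these days. On the matched arrays after quantile normalization the changes in Sa/CD99 cells over these days were -2.23 for miR-191*, -1.75 for miR-425 and -1.46 for miR-425*. All 3 were called lower there, as were 35.6% of all tested miRNAs. Relative to the median of the always detected miRNAs on those arrays, -1.54, the changes were -0.69, -0.21 and 0.08. In Saos-2 cells miR-191* was likewise at 0 relative to the median at day 7 and at 0.77 at day 14.

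As a share of the summed human miRNA signal of its array, which is itself a scaling by that sum, miR-425 made up 0.165% and 0.179% in Sa/CD99 cells at day 0 and 0.0722% and 0.0735% at day 14. miR-191* went from 0.125% and 0.132% to 0.0409% and 0.0445%. In Saos-2 cells miR-425 was 0.177% and 0.162% at day 0 and 0.0866% and 0.123% at day 14. In Saos-2 cells miR-191* was 0.0607% and 0.0922% at day 0 and 0.0821% and 0.0475% at day 14. miR-425* went from 0.0985% and 0.0953% to 0.0209% and 0.0370% in Sa/CD99 cells. In Saos-2 cells miR-425* was 0.0011%, on the undetected array, and 0.0729% at day 0, and 0.0584% and 0.0409% at day 14. How many of all miRNAs had a lower share at day 14 was not computed. The summed signal itself was 8177 to 11130 on the day 0 arrays and 9567 to 25558 on the later ones, and its part in the falling shares was not tested.

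The third comparison was between the arms of 1 hairpin, star minus guide on the same array. For miR-191 it had no value, since the guide was at the lowest value of every column. For miR-425 the difference on the table was -0.70 and -0.69 at day 0, -1.11 and -0.41 at day 7, and -3.46 and -2.05 at day 14 in the Sa/CD99 clones wt22 and wt36. In Saos-2 cells it was -7.97 and -1.09, then -2.85 and -3.45, then -0.60 and -2.90, where -7.97 holds the undetected array. The star was below the guide on every array. Since the arms are read by different probes, only changes of this difference between groups are interpretable, and not its size.

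The difference between the arms of miR-425 was 1.74 higher in Sa/CD99 than in Saos-2 cells, with the means per day weighted equally (exact two-sided permutation test within days, p = 0.213 over 216 arrangements, of which the smallest possible p is 0.00926). Without the undetected array it was 0.59 (exact two-sided permutation test, p = 0.343). With the sum of all probes, which gives that array a value, it was 0.42 (exact two-sided permutation test, p = 0.13). By day these sums gave 0.68, 0.56 and 0.02 at days 0, 7 and 14, and the table gave 3.83, 2.38 and -1.01. With arrays as filed, where cell type and slide coincide, it was -0.67 (exact two-sided permutation test, p = 0.0741). From day 0 to day 14 the difference between the arms changed by 0.36 over both cell types (exact two-sided permutation test, p = 0.944). That design cannot give a p below 0.0556, and the change was -1.36 without the undetected array. The 0.36 is the mean of opposite changes, -2.06 in Sa/CD99 cells and 2.78 in Saos-2 cells, and the latter holds the undetected array. A shift in the balance of the arms of miR-425 was therefore not detected with CD99. These few arrays leave room for a difference of either sign. Over the days the test could not decide, because no arrangement of these arrays gives a p below 0.0556. In Sa/CD99 cells the table values did not overlap, with -0.70 and -0.69 at day 0 and -3.46 and -2.05 at day 14. These days lay on different slides. On the quantile-normalized matched arrays the values overlapped, with -0.88 and -1.98 at day 0 and -1.25 and -1.03 at day 14.

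Of the arm pairs on the array, 8 had both arms above the lowest value on both arrays of at least 1 group. Over all days the median change of star minus guide between the cell types was 0.84 for these 8 pairs. The 1.74 of miR-425 was above the other 7, but it holds the undetected array and was 0.59 without it. The other pairs were not computed without that array.

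**Figure D5:**
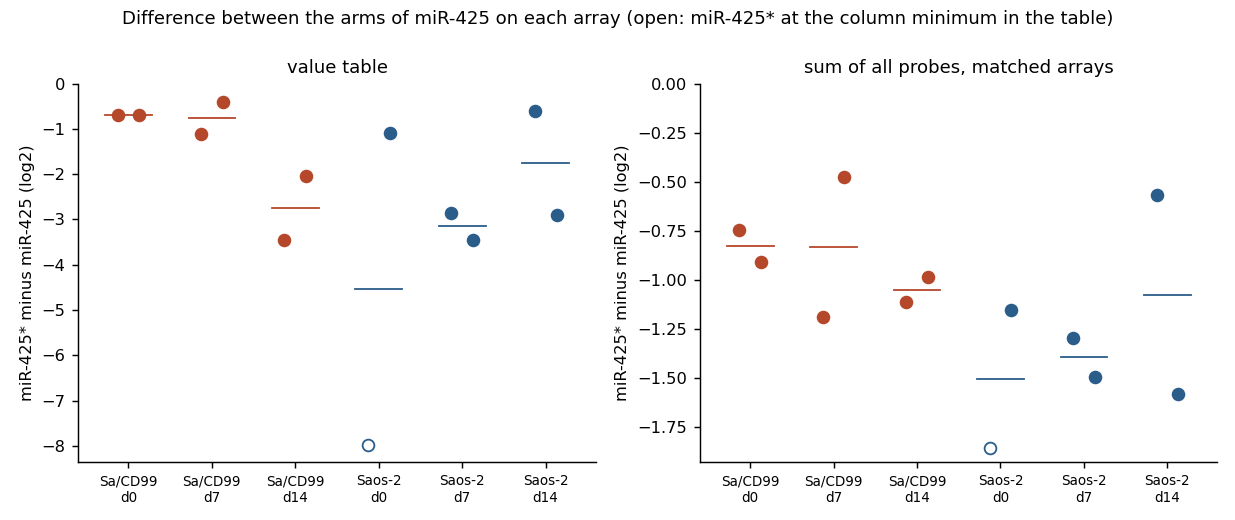
Star minus guide for miR-425 on each array (vertical axis, log2) by cell type and day, in the normalized table (left) and as the sum of all probes on the matched arrays (right, another axis range), with bars at the group means. The open point is the undetected array of Saos-2 at day 0, at -7.97 in the table, and all 12 points of both panels lie below 0.

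Likeness of the profiles was described by Pearson's r over the columns of the table, which also reflects their shared scale and is given without a test. Because miR-425* was undetected on 1 array, r was also taken over the other 11 columns, a choice made after seeing the data. Between miR-191* and miR-425 r was 0.77 over 12 columns and 0.77 over 11. Between miR-191* and miR-425* it was 0.53 over 12 columns and 0.94 over 11, and between the arms of miR-425 it was 0.26 and 0.81. The low values with miR-425* thus rested on the undetected array. Of the 98 other miRNAs above the lowest value in all columns, the profiles most like miR-425 were those of miR-92a, miR-193b and miR-99b, with r = 0.98 for each over 12 columns, against a median of 0.83 over the 98. Those most like miR-191* were miR-1238, miR-1234 and miR-145, with r = 0.97, 0.95 and 0.94 against a median of 0.69. For miR-425* they were miR-940, miR-1234 and miR-1280 over 12 columns, with r = 0.62, 0.57 and 0.52, and miR-1238, miR-365 and miR-145 over 11 columns, with r = 0.94, 0.91 and 0.89 against a median of 0.64.

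Other miRNAs encoded in 3p21, the chromosome band of the cluster, were taken from a chosen list that may not hold all of them. Of this list 7 names were on the array and 3 of them were above the lowest value on at least 1 array. let-7g, a member of the let-7 family encoded 3.25 Mb away, was above the lowest value on all 12 arrays at 6.69 to 7.56 on the log2 scale, while its star arm was on none. As for miR-191, both of the following hairpins had a detected star arm and an undetected other arm. miR-135a* was above the lowest value on 8 arrays and miR-135a on 0, and miR-1226* on 7 arrays and miR-1226 on 0. miR-138 was not detected on any array.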

How the data were processed

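RNA of 12 samples was hybridized by the authors to Agilent Human miRNA v.3 arrays (1 colour, 15739 spots), read with Feature Extraction 10.7.3.1 per the file headers; RMA is named in the submitters' processing notes. The authors deposited a table of log2 values, normalized between arrays, with undetected miRNAs at the lowest value of each column. Its values lay within a median of 0.06 of log2 total gene signals after quantile normalization, and how the authors centred it is not given in the sources used here. The deposited scanner files give spot intensity values, not normalized, with detection flags.

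Samples were grouped by the labels (2 cell types, 3 days, 2 arrays each). limma 3.58.1 (R 4.3.3) was fitted to the table with 6 group means and 6 residual degrees of freedom, over the 219 of 851 miRNAs above the lowest value on both arrays of at least 1 group. Within a day, cell types were called with p no higher than 0.01 before adjustment and a log2 change of 0.485 (1.4-fold) or more, as in the study's methods, and all other contrasts at an adjusted p (Benjamini-Hochberg) of 0.05. Arm differences were tested by exact two-sided permutation. Scanner values came from arrays matched to the table by their detected miRNAs. The main alternatives were the scanner arrays as filed or matched (rma background on spot medians, quantile normalization, median polish), other scalings and filters, single arrays left out and a replicate block. The replicate numbers pair the Sa/CD99 arrays, since a number is a clone, and were taken to pair the Saos-2 arrays from the data. Between days, deviations of same-numbered arrays from their group means correlated at 0.03 to 0.18 in Sa/CD99 and 0.18 to 0.20 in Saos-2 cells on the table, at 0.19 to 0.43 on the matched arrays, and at -0.90 to 0.19 on the arrays as filed.

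The fit was tested on data simulated for the day 0 comparison, with normal spread and, unlike the table, no lowest value. There the rule called 52.0% of changes of 2 log2 units, 85.7% of changes of 4 and 0.92% of unchanged miRNAs. The number of arrays limits the precision. Members, lists and tests were chosen with earlier results of these data known. Named for likeness were the 3 miRNAs of highest correlation with each arm, and by a chosen list other miRNAs of 3p21. Sequences are from RefSeq (GRCh38.p14).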

Additional observations from a re-analysis of the deposited data

How the results depend on the processing

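The number of the 3 arms called between the cell types at day 0 rose from 0 to 1 on the matched scanner arrays, also with the replicate block there, and in the fit of the 4 arrays of that day alone. The number called over days fell from 1 to 0 in Saos-2 and from 2 to 0 in Sa/CD99 cells with the scanner arrays as filed, with 75th percentile scaling, without normalization and with the centred table. It rose from 2 to 3 in Sa/CD99 cells on the matched arrays, with and without the replicate block, and with values at the minimum missing. With single arrays left out, the number called ranged from 0 to 1 at day 0, 0 to 1 at day 7, 0 to 1 over all days, 0 to 1 for the interaction, 0 to 2 over days in Saos-2 and 1 to 2 in Sa/CD99 cells. The replicate block on the table, with a correlation of 0.12 within replicate numbers, left 0 arms called at day 0 and changed no other number of arms called. The cause of these shifts was not tested.

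The arm difference of miR-425 turned to -0.67 between the cell types and -0.51 from day 0 to day 14 with arrays as filed, and to -1.36 over the days with the undetected array missing. With single arrays left out it ran from 0.59 to 2.88 between the cell types and from -1.36 to 2.08 over the days.

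Single values of opposite sign follow in the order miR-191*, miR-425, miR-425* where 3 are given. With arrays as filed, Sa/CD99 minus Saos-2 was -0.21 for miR-191* and -0.64 for miR-425* at day 7, 1.09, 1.10 and 0.48 at day 14, and 0.89 for miR-425 over all days. Saos-2 changed from day 0 by 0.44 for miR-425 at day 7, and by 0.15, 0.37 and -0.011 at day 14. Sa/CD99 changed by 1.55, 0.65 and 0.92 from day 7 to 14, and by 0.33 and 0.27 for miR-191* and miR-425 from day 0 to 14. Without normalization, the cell types differed by -0.048 and -0.17 for miR-191* and miR-425 at day 7, by 0.86, 0.50 and 0.78 at day 14, and by 0.30 for miR-425 over all days. Saos-2 then changed by 1.89 and 1.75 for miR-191* and miR-425 at day 7 and by 1.29 and 1.22 at day 14. Sa/CD99 changed by 0.31, 0.13 and 0.0059 from day 7 to 14 and by 0.94, 1.15 and 1.21 from day 0 to 14. On the matched arrays, with and without the replicate block, miR-425 over all days was 0.095, and miR-425* in Saos-2 was -0.39 at day 7 and -0.030 at day 14. Without background correction these 3 were 0.034, -0.063 and -0.0025. With 75th percentile scaling miR-425 over all days was 0.11 and miR-191* in Saos-2 at day 14 was 0.15. With values at the minimum missing, miR-425* in Saos-2 was -3.20 and -1.81. With single arrays left out, the ranges were -0.070 to 0.17 for miR-425 between the cell types at day 0, -0.14 to 0.52 at day 7, and -1.82 to 0.27 for miR-191* at day 14. For miR-425* in Saos-2 they were -3.20 to 3.45 at day 7 and -1.81 to 4.83 at day 14.

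A slide block could not be fitted, since each group lies on 1 slide. The arm difference of miR-191 has no value, and among the 3 detected arms signals near background limit miR-425* most, with 84 of 192 spots well above it. The probe sums, the paired fit of the matched arrays, the arm difference and the correlations without the undetected array were chosen after seeing the data.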
